A study of Rattus norvegicus with 12 samples.

Results

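The 34 genes described here make, sense, move and export cholesterol in the rostral ventrolateral medulla (RVLM), a region of the brainstem that sets sympathetic outflow and so blood pressure. They were taken by name, as the probes whose gene name, synonym or current symbol was on a list of sterol genes. The rule used names and no measured value, but the list was drawn up with earlier results of these data known. All 34 were among the 25446 items (genes, or probes with no gene name) that were tested. The list holds 18 genes of synthesis and 16 genes of regulation, transport and efflux.

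The RVLM was micropunched from male rats of the inbred F344 strain at 24 months (aged), 12 months (middle-aged) or 3 months (young), with 3 animals per age. No group had a treatment or an altered allele, and all rats were killed under isoflurane. RNA was labelled with 1 dye and read on 12 whole-genome arrays, since 1 animal of each age (replicate 3) was hybridised to a pair of arrays, which were averaged. The study asked which genes, above all immune genes, differ with age.

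A level below is the log2 processed signal of a gene's probe minus the 75th percentile of its array, so 1 unit is a doubling. Levels of different genes come from different probes and cannot be ranked against each other. A difference is given as the older minus the younger group, with the standard error (SE) of limma's fit over all 9 animals. "Rose" and "fell" are used of genes whose limma p, adjusted by Benjamini-Hochberg over all items, was under 0.05. All 34 genes were well above background on every array. The arrays sat on 3 slides, and 1 slide alone held all ages. Animals of the same age differed by a median of 0.136 to 0.144 log2 units over all items, against 0.058 to 0.063 for both arrays of 1 animal. A punch holds many cell types, so fewer cells of a type and less RNA per cell cannot be told apart. Of 5 marker genes for the catecholamine neurons of the RVLM, 4 had a probe and were tested. Th and Dbh, which encode enzymes of catecholamine synthesis, were well above background on all 12 arrays, so the labelled region held its defining transcripts.

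Cells build cholesterol from acetyl-CoA through mevalonate and farnesyl pyrophosphate to squalene, which is closed into a sterol ring and then trimmed and reduced to cholesterol. The adult brain makes its own cholesterol, because lipoproteins of the blood do not cross the blood-brain barrier, and most of it lies in myelin. When sterols are scarce, Scap carries SREBP transcription factors out of the endoplasmic reticulum and they switch on synthesis genes; when sterols are plentiful, Insig proteins hold Scap back. Excess cholesterol activates LXR receptors, whose targets include the exporters Abca1 and Abcg1.

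In aged animals the synthesis pathway was lower from end to end. All 18 synthesis genes had a lower mean in aged than in young animals, 13 of them fell, and 5 (Acat2, Mvk, Pmvk, Nsdhl and Ebp) did not pass. Among all items 2.04% passed in this comparison and 0.472% fell. An unadjusted limma p under 0.05 was reached by 17 of the 18 genes, all lower, beside 4.93% of all items. In each of the 18 genes the 3 aged animals lay below the 3 young animals, which held for 8.67% of all items. The median difference of the 18 genes was −0.51, beside 0.033 for all items. With slide as a block the median was −0.53 and 10 genes passed, and on the slide that held all ages it was −0.46. The 16 regulation, transport and efflux genes did otherwise: 3 rose, 0 fell, 13 did not pass, and their median was 0.16, beside 1.57% of all items that rose.

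**Figure D1:**
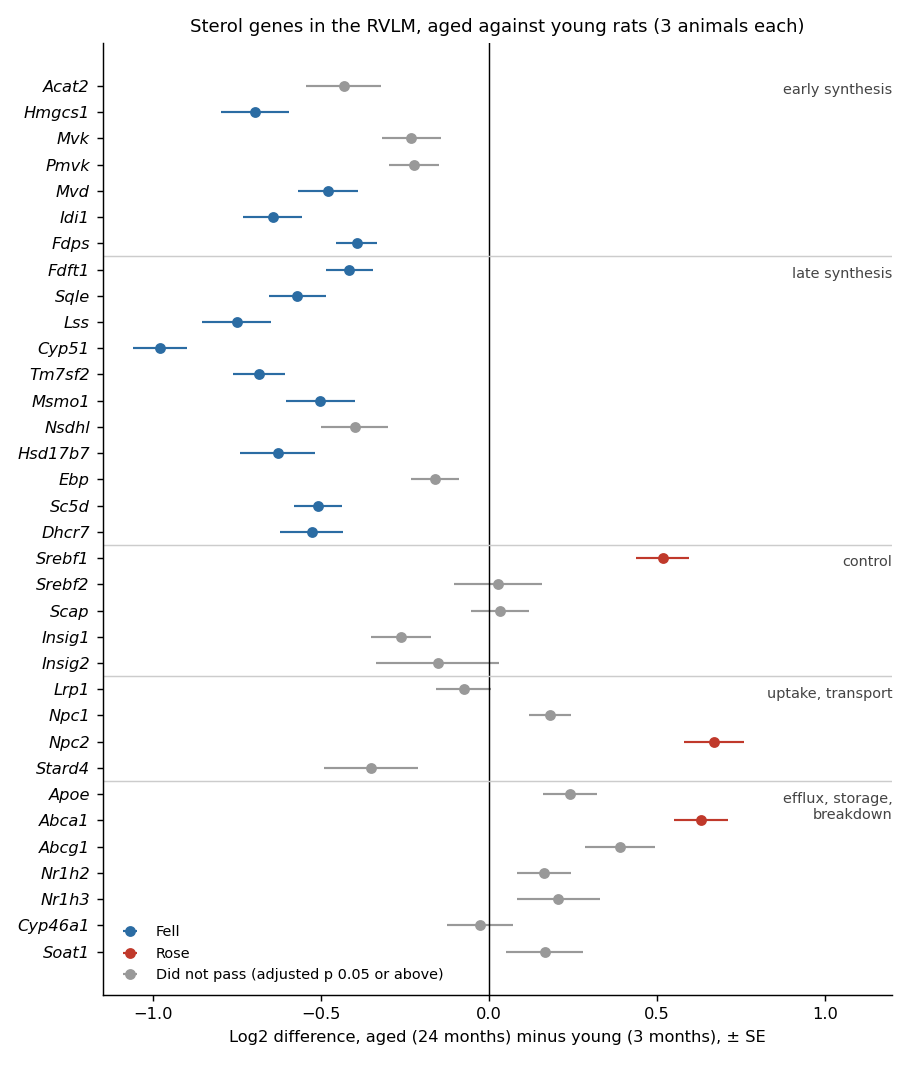
Log2 difference between aged and young rats for each of the 34 genes (horizontal axis, points with SE, 3 animals per group), in pathway order from top to bottom. Blue points fell, red points rose and grey points did not pass. All 18 synthesis points lie left of 0, between −0.98 (Cyp51) and −0.16 (Ebp), and the red points are Srebf1, Npc2 and Abca1.

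The call for single synthesis genes depended on the animals. The count of 13 was 7, 8 and 6 without young replicates 1, 2 and 3, and 7, 7 and 9 without aged replicates 1, 2 and 3. Idi1, Lss, Cyp51, Tm7sf2 and Sc5d passed in all 19 alternative settings tried, and Hmgcs1 and Sqle in 18. The others passed less often: Fdps in 12, Hsd17b7 in 11, Mvd, Fdft1 and Dhcr7 in 10 each, and Msmo1 in 6. Mvd, Fdft1 and Dhcr7 were each lost whichever young or aged animal was left out, at adjusted p of 0.062 to 0.12, 0.050 to 0.091 and 0.067 to 0.090.

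The early steps, from acetyl-CoA to farnesyl pyrophosphate, hold 7 of the genes, of which 4 fell, with a median of −0.43. Hmgcs1 makes the precursor from which mevalonate is formed. Its levels were 4.84, 4.98 and 5.03 at 3 months, 4.38, 4.69 and 4.53 at 12 months, and 4.14, 4.31 and 4.31 at 24 months. The 3 ages did not overlap, and Hmgcs1 fell by 0.70 ± 0.10 in aged against young animals (limma, adjusted p = 0.0098; n = 3 each). The call was lost without young replicate 3 (adjusted p = 0.051).

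Mvd, which decarboxylates diphosphomevalonate to the first isoprene unit, had levels of 3.07, 3.10 and 2.94 at 3 months, 2.82, 2.85 and 3.07 at 12 months, and 2.54, 2.51 and 2.63 at 24 months. Young and middle-aged animals overlapped, and all aged animals lay below both. Mvd fell by 0.48 ± 0.09 in aged against young animals (limma, adjusted p = 0.032). Idi1, the isomerase of the isoprene units, gave a step at each age: levels were 3.10, 3.16 and 3.30 at 3 months, 2.73, 2.75 and 2.85 at 12 months, and 2.43, 2.53 and 2.66 at 24 months. It fell by 0.64 ± 0.09 in aged against young animals (limma, adjusted p = 0.0077).

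Fdps, the synthase of farnesyl pyrophosphate, is the branch point to protein prenylation, dolichol and ubiquinone as well as sterols. Its levels were 5.14, 5.07 and 5.12 at 3 months, 5.04, 5.08 and 5.03 at 12 months, and 4.74, 4.69 and 4.72 at 24 months. Here the young and middle-aged animals overlapped and the aged animals stood apart, and Fdps fell by 0.39 ± 0.06 (limma, adjusted p = 0.015). Its call was lost when young animal 1 or 3, or aged animal 1 or 2, was left out (adjusted p of 0.054 to 0.070). At 12 months 14.9% of this 24-month difference was present, the lowest share among the 18 genes. The genes of this stretch that did not pass were the thiolase Acat2 (−0.43 ± 0.11, adjusted p = 0.11) and the kinases Mvk (−0.23 ± 0.09, adjusted p = 0.26) and Pmvk (−0.22 ± 0.07, adjusted p = 0.21), all by limma.

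The late steps, from squalene to cholesterol, hold 11 genes. Of these 9 fell, and the median was −0.53. Fdft1 joins farnesyl pyrophosphate units into squalene, the first step that leads to sterols alone. Levels of Fdft1 were 1.17, 1.26 and 1.22 at 3 months, 1.14, 1.08 and 0.97 at 12 months, and 0.78, 0.84 and 0.78 at 24 months. The 3 ages did not overlap, and the gene fell by 0.42 ± 0.07 in aged against young animals (limma, adjusted p = 0.023).

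Sqle, the squalene epoxidase, is a rate-limiting enzyme of the late pathway. Its levels were 3.66, 3.68 and 3.71 at 3 months, 3.31, 3.29 and 3.44 at 12 months, and 2.98, 3.13 and 3.24 at 24 months. Each age again stood apart, and Sqle fell by 0.57 ± 0.08 in aged against young animals (limma, adjusted p = 0.011). That call was lost without young replicate 3 (adjusted p = 0.054).

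Lss closes squalene epoxide into lanosterol, the first sterol ring. Levels of Lss were 0.62, 0.54 and 0.54 at 3 months, −0.08, 0.25 and 0.23 at 12 months, and −0.20, −0.07 and −0.28 at 24 months. Middle-aged replicate 1 overlapped the aged animals, all young animals lay above both older groups, and Lss fell by 0.75 ± 0.10 in aged against young animals (limma, adjusted p = 0.0080).

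Cyp51, the cytochrome P450 that removes a methyl group from lanosterol, had the largest difference of the 34 genes. Its levels were 3.63, 3.53 and 3.50 at 3 months, 2.81, 3.01 and 3.04 at 12 months, and 2.57, 2.57 and 2.59 at 24 months. The aged animals lay close together, and the ages did not overlap. Cyp51 fell by 0.98 ± 0.08 in aged against young animals (limma, adjusted p = 0.0011), which left the aged signal at 0.507 times the young one. It stood at rank 21 of all items by p in this comparison.

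Tm7sf2, a reductase of the sterol ring that acts next, had levels of 3.16, 3.07 and 3.07 at 3 months, 2.68, 2.65 and 2.82 at 12 months, and 2.36, 2.39 and 2.50 at 24 months. Its ages did not overlap, and it fell by 0.69 ± 0.08 in aged against young animals (limma, adjusted p = 0.0038). Msmo1, the methylsterol monooxygenase, had levels of 6.66, 6.75 and 7.00 at 3 months, 6.46, 6.66 and 6.43 at 12 months, and 6.29, 6.33 and 6.28 at 24 months. The aged animals lay below all others, and young and middle-aged animals met at 6.66. Msmo1 fell by 0.50 ± 0.10 (limma, adjusted p = 0.049) and was the gene just inside the threshold; with slide as a block its adjusted p was 0.071. It was lost in 8 of the 9 fits without 1 animal, all but that without middle-aged animal 2, at adjusted p up to 0.14.

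Nsdhl, the dehydrogenase that works on the product of Msmo1, lay just outside. Its levels were 1.34, 1.37 and 1.28 at 3 months, 1.28, 1.03 and 1.37 at 12 months, and 0.91, 0.86 and 1.02 at 24 months. Aged animals lay below all others, and the difference from young animals was −0.40 ± 0.10 (limma, adjusted p = 0.090).

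Hsd17b7, the keto-reductase of the same demethylation complex, acts beside Nsdhl. Its levels were −1.61, −1.61 and −1.82 at 3 months, −2.08, −2.23 and −1.90 at 12 months, and −2.42, −2.35 and −2.16 at 24 months. Middle-aged and aged animals overlapped. Hsd17b7 fell by 0.63 ± 0.11 in aged against young animals (limma, adjusted p = 0.028), and with slide as a block it did not pass (adjusted p = 0.088). Leaving out young animal 1 or 2, middle-aged animal 1, or aged animal 1 or 2 also ended the call (adjusted p of 0.051 to 0.11).

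Sc5d, a desaturase near the end of the pathway, had levels of 3.02, 2.91 and 2.92 at 3 months, 2.76, 2.62 and 2.77 at 12 months, and 2.47, 2.44 and 2.41 at 24 months. The ages did not overlap, and Sc5d fell by 0.51 ± 0.07 in aged against young animals (limma, adjusted p = 0.0095). Dhcr7 encodes a reductase at the last step, where its loss in humans causes Smith-Lemli-Opitz syndrome. Its levels were 2.38, 2.22 and 2.20 at 3 months, 1.77, 1.75 and 2.02 at 12 months, and 1.71, 1.72 and 1.78 at 24 months. All young animals lay above both older groups, which overlapped. Most of the Dhcr7 difference, 79.1%, was present at 12 months, the highest share of the 18 genes. In aged against young animals Dhcr7 fell by 0.53 ± 0.09 (limma, adjusted p = 0.027; 0.064 with slide as a block). Ebp, the sterol isomerase, had the smallest difference of the pathway (−0.16 ± 0.07, limma, adjusted p = 0.34).

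**Figure D2:**
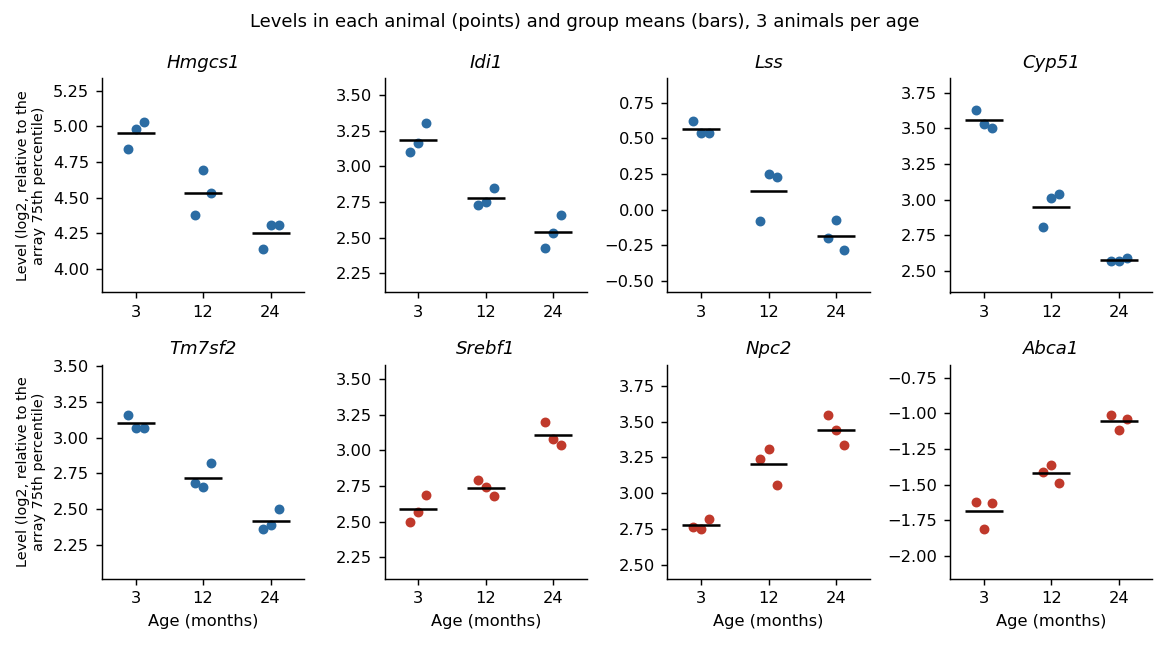
Level of 8 genes in each animal (points) with group means (bars) at 3, 12 and 24 months, on a log2 axis relative to the 75th percentile of each array; every panel spans the same 1.5 log2 units. The blue genes step down and the red genes step up, and Cyp51 falls to 2.57, 2.57 and 2.59 in the aged animals.

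The promoters of the 3 synthesis genes with the largest falls are shown, with that of the exporter Abca1 beside them. They are RefSeq sequences on the current rat build, GRCr8, from 250 bases before to 50 bases from the gene start on, 5′ to 3′ on the strand of the gene. Capitals mark exact matches on either strand to CCAAT, the box bound by NF-Y, to GGGCGG, the box bound by Sp1, and to CACGTG, an E-box. NF-Y and Sp1 are known partners of SREBP at sterol genes. No matches overlapped in these 4 windows.
Hmgcs1, chr2:53382054-53382353, plus strand: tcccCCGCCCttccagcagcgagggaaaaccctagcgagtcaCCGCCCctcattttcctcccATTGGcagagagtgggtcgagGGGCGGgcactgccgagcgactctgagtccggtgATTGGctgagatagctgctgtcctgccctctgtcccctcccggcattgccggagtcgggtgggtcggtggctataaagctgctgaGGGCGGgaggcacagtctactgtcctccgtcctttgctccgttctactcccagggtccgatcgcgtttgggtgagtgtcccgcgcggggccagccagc
Lss, chr20:12118181-12118480, minus strand: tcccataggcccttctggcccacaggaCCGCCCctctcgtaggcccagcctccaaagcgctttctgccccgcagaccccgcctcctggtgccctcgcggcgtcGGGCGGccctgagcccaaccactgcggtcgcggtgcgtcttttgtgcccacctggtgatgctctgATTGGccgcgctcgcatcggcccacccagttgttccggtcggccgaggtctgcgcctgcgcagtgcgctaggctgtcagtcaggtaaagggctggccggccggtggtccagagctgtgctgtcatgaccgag
Cyp51, chr4:30991443-30991742, plus strand: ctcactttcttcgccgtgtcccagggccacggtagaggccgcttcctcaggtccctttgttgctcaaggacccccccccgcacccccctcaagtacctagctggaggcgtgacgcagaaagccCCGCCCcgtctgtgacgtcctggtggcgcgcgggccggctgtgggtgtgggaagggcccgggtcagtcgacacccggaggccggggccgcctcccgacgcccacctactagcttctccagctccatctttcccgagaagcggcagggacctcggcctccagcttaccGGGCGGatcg
Abca1, chr5:72596424-72596723, minus strand: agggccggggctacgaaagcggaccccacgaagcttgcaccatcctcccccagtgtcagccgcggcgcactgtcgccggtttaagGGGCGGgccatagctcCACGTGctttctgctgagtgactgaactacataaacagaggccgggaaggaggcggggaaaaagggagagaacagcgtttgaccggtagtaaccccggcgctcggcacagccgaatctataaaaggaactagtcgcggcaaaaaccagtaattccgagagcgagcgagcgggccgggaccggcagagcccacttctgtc

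The Hmgcs1 window held 2 matches to CCAAT, at 188 and 133 bases before the start, and 4 to GGGCGG. The Lss window held 1 CCAAT match, 82 bases before the start, and 2 to GGGCGG. The Cyp51 window held 2 matches to GGGCGG and 0 to CCAAT, so these genes did not share 1 arrangement. Of the 34 genes, 29 had a promoter in the table, 15 of them synthesis genes. CCAAT was found in 12 of the 15 synthesis promoters (80.0%), against 37.5% of all 33469 rat promoters of that length, and GGGCGG in 13 (86.7%), against 33.1%. Among the 14 other genes with an entry, which had 17 promoters, 64.7% of promoters held CCAAT and 76.5% held GGGCGG. An exact match to the classical sterol regulatory element, TCACNCCAC, occurred in 1.12% of all promoters and in 0 of these 32. Variants of this element were not searched for. At so low a share, 0 among 32 promoters cannot tell these genes from others. The E-box CACGTG was in 6.42% of all promoters, in that of Sc5d among synthesis genes, and in those of Scap, Insig1 and Abca1. The LXR element was searched for as an exact direct repeat with 4 free bases, with no mismatch allowed. This strict form was found in 2 of all 33469 promoters and in 0 of these 32. Looser forms of the LXR element were not searched for. So rare a match cannot tell whether these promoters, that of Abca1 included, hold or lack an LXR element. These matches describe letters in a short window, and nothing on binding of a factor was measured.

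The synthesis genes were lower at each age than at the one before, in steps that differed between genes. In all 18 genes the group mean was lower at 12 than at 3 months and lower again at 24 months, an order found in 16.7% of all items. In 8 of the 18 (Hmgcs1, Pmvk, Idi1, Fdft1, Sqle, Cyp51, Tm7sf2 and Sc5d) the animals of the 3 ages did not overlap at all, against 0.405% of all items. A median of 56.3% of the 24-month difference was present at 12 months, with a range of 14.9% (Fdps) to 79.1% (Dhcr7). The early genes had a median of −0.14 in middle-aged against young animals and −0.25 in aged against middle-aged animals. For the late genes these medians were −0.34 and −0.26.

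Between middle-aged and young animals the median of the 18 genes was −0.26, and 11 genes had groups that did not overlap, against 4.61% of all items. Only Cyp51 fell, by 0.61 ± 0.08 (limma, adjusted p = 0.036), where 0.0393% of all items fell. That call was lost whichever of the 9 animals was left out, at adjusted p of 0.060 to 0.13. An unadjusted limma p under 0.05 was reached by 10 of the 18 genes, all lower, beside 2.63% of all items. On slide 3, which compares 1 animal of each age, Acat2, Mvk, Mvd and Nsdhl were higher in the middle-aged than in the young animal, by 0.14, 0.12, 0.11 and 0.084. Between aged and middle-aged animals the median was again −0.26, and in 14 genes the aged animals lay below all middle-aged ones, against 6.6% of all items. In limma's fit 0 of the 18 genes passed in this comparison, as 0.0% of all items fell; 11 had an unadjusted p under 0.05, all lower, against 3.12% of all items. The lowest adjusted p among them was that of Fdps (−0.34 ± 0.06, limma, adjusted p = 0.17).

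**Figure D3:**
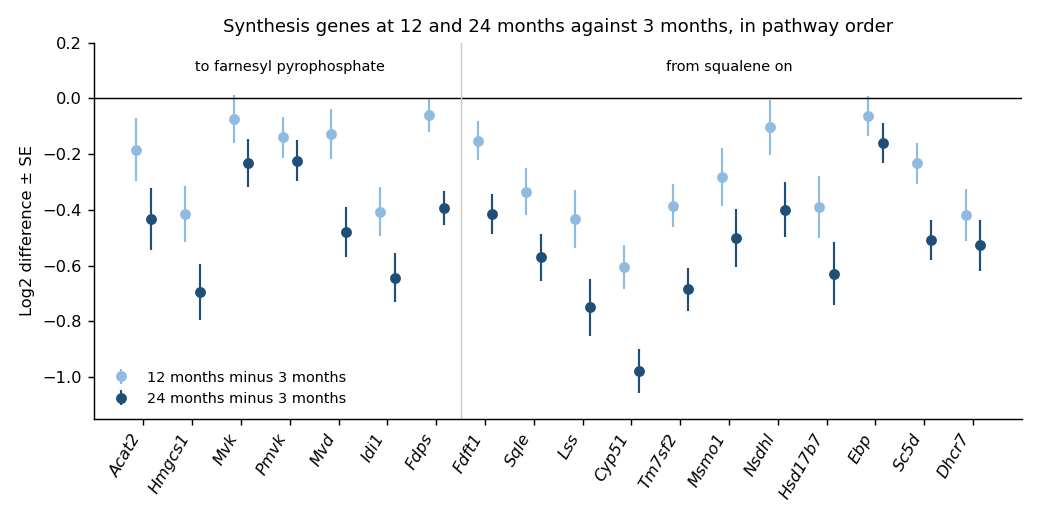
Log2 difference from young (3-month) animals at 12 months (light) and at 24 months (dark) for the 18 synthesis genes, with SE, 3 animals per age, in pathway order. Each dark point lies below its light point. Fdps shows little of its difference at 12 months, and Dhcr7 most of it.

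Control of synthesis is held by 5 genes, of which 1 rose and 4 did not pass, and their median in aged against young animals was 0.026. Srebf1, which encodes the SREBP best known for fatty acid synthesis, had levels of 2.50, 2.57 and 2.69 at 3 months, 2.79, 2.74 and 2.68 at 12 months, and 3.20, 3.08 and 3.04 at 24 months. The aged animals lay above all others, and Srebf1 rose by 0.52 ± 0.08 against young animals (limma, adjusted p = 0.014). Leaving out young animal 1 or 2, or aged animal 1 or 2, ended the call (adjusted p of 0.050 to 0.058). A second probe of Srebf1, on 10 spots, gave 0.29 ± 0.14 and did not pass (limma, adjusted p = 0.36), so the rise rests on 1 of its probes.

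Srebf2, whose product is the main activator of sterol synthesis genes, did not pass. Its levels were −0.10, −0.37 and −0.10 at 3 months, −0.51, −0.06 and −0.35 at 12 months, and −0.29, −0.14 and −0.06 at 24 months. The ages overlapped, with a difference of 0.03 ± 0.13 in aged against young animals (limma, adjusted p = 0.95). Scap, the escort of SREBP, had levels of 2.90, 2.71 and 2.75 at 3 months, 2.76, 2.91 and 2.94 at 12 months, and 2.86, 2.72 and 2.87 at 24 months. These overlapped as well, at 0.03 ± 0.09 (limma, adjusted p = 0.89).

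Insig1, an inhibitor of SREBP export and itself a known SREBP target, depended on the probe. Its brightest probe gave 5.12, 5.13 and 5.34 at 3 months, 5.02, 5.06 and 5.19 at 12 months, and 4.85, 4.94 and 5.01 at 24 months. Aged animals lay below all young and middle-aged ones, and the difference from young animals was −0.26 ± 0.09, which did not pass (limma, adjusted p = 0.22). The other 3 probes of Insig1 each passed: −0.37 ± 0.07, −0.48 ± 0.09 and −0.57 ± 0.08 (limma over all kept probes, adjusted p = 0.034, 0.043 and 0.0086). With the mean of its 4 probes Insig1 differed by −0.42 and passed (limma, adjusted p = 0.022). The brightest probe lies at chr4:2577508-2577567 on build rn3, and the probe with the largest difference at chr4:2578701-2578760, both per the array files. Insig2, its relative, had levels of 0.18, 0.31 and 0.18 at 3 months, 0.32, −0.43 and 0.30 at 12 months, and 0.11, −0.01 and 0.12 at 24 months. Middle-aged replicate 2 stood far below its group, and Insig2 differed by −0.15 ± 0.18 in aged against young animals (limma, adjusted p = 0.73). A second probe of Insig2 gave −0.28 ± 0.07, with a smaller SE, and did not pass either (limma over all kept probes, adjusted p = 0.089).

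**Figure D4:**
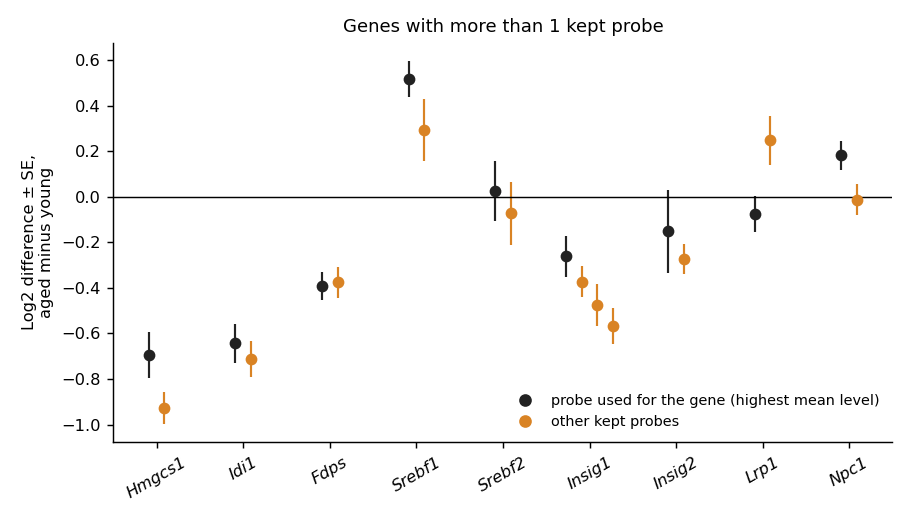
Log2 difference between aged and young rats, with SE, for every kept probe of the 9 genes that had more than 1 (black, the probe used; orange, the others; 3 animals per group). The probes of Hmgcs1, Idi1, Fdps, Insig1 and Insig2 all lie below 0, and those of Srebf1 lie above it. Those of Srebf2, Lrp1 and Npc1 lie on both sides of 0.

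Where synthesis genes had a second kept probe, it gave the same direction. The second probe of Hmgcs1 fell by 0.93 ± 0.07 in aged against young animals (limma, adjusted p = 8.0e-04), and in middle-aged against young animals it fell by 0.49 ± 0.07 (adjusted p = 0.049), where the brighter probe did not pass. The second probes of Idi1 and Fdps fell by 0.71 and 0.38 in aged against young animals.

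Uptake and movement inside the cell are held by 4 genes, of which 1 rose and 3 did not pass. Npc2 is the lysosomal protein that hands cholesterol released from taken-up lipoproteins to Npc1. Its levels were 2.76, 2.75 and 2.82 at 3 months, 3.24, 3.31 and 3.06 at 12 months, and 3.55, 3.44 and 3.34 at 24 months. The 3 ages did not overlap, and Npc2 rose by 0.67 ± 0.09 in aged against young animals (limma, adjusted p = 0.0071), passing in all 19 alternatives. Npc1, the membrane partner of Npc2, was matched only through a RefSeq synonym, since its probes bear the name Cdig2, and these values hold for Npc1 as far as that synonym does. The probe had levels of 2.73, 2.72 and 2.75 at 3 months, 2.71, 2.67 and 2.76 at 12 months, and 2.92, 2.88 and 2.94 at 24 months. Aged animals lay above all others by this probe, but the difference of 0.18 ± 0.06 did not pass (limma, adjusted p = 0.23) and a second probe gave −0.01.

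Lrp1, a large receptor that takes up Apoe-bearing particles, had levels of 1.74, 1.73 and 1.70 at 3 months, 1.77, 1.68 and 1.59 at 12 months, and 1.73, 1.69 and 1.52 at 24 months. The ages overlapped, at −0.08 ± 0.08 in aged against young animals (limma, adjusted p = 0.70), and its second probe gave 0.25 ± 0.11 (adjusted p = 0.32). Stard4, a carrier of sterols between membranes, had levels of −1.43, −1.16 and −1.38 at 3 months, −1.51, −1.39 and −1.22 at 12 months, and −1.76, −1.87 and −1.39 at 24 months. Aged replicate 3 overlapped the younger animals, and the difference from young animals was −0.35 ± 0.14 (limma, adjusted p = 0.29).

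Efflux, its receptors, storage and breakdown are held by 7 genes. In aged against young animals 1 rose and 6 did not pass, and the median was 0.21. Abca1 loads cholesterol onto lipid-poor apolipoproteins such as Apoe. Its levels were −1.62, −1.81 and −1.63 at 3 months, −1.41, −1.36 and −1.49 at 12 months, and −1.01, −1.12 and −1.04 at 24 months. The 3 ages stood apart, and Abca1 rose by 0.63 ± 0.08 in aged against young animals (limma, adjusted p = 0.0055); it passed in all 19 alternatives. Besides Npc2, Abca1 was the one gene of the 16 with 3 rising groups that did not overlap, an order found in 1.2% of all items.

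Abcg1, the exporter to formed lipoprotein particles, had levels of 3.85, 3.70 and 3.45 at 3 months, 3.77, 3.90 and 3.86 at 12 months, and 4.02, 4.01 and 4.14 at 24 months. Aged animals lay above all others; the difference of 0.39 ± 0.10 from young animals did not pass (limma, adjusted p = 0.12). Apoe, the main lipoprotein component made in the brain, had levels of 7.86, 7.74 and 7.80 at 3 months, 7.81, 7.85 and 7.83 at 12 months, and 8.04, 7.92 and 8.16 at 24 months. Again the aged animals lay above all others, and the difference of 0.24 ± 0.08 did not pass (limma, adjusted p = 0.20).

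The LXR receptors Nr1h2 and Nr1h3 did not pass. Nr1h2 had levels of 2.60, 2.62 and 2.51 at 3 months, 2.64, 2.59 and 2.81 at 12 months, and 2.76, 2.69 and 2.77 at 24 months, with a difference of 0.16 ± 0.08 in aged against young animals (limma, adjusted p = 0.37). Nr1h3 had levels of −0.90, −1.17 and −0.96 at 3 months, −0.96, −0.58 and −0.89 at 12 months, and −0.75, −0.72 and −0.95 at 24 months, a difference of 0.21 ± 0.12 (limma, adjusted p = 0.47). Aged and young animals did not overlap for Nr1h2, and overlapped for Nr1h3.

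Cyp46a1, a neuronal enzyme that turns cholesterol into an oxysterol that can leave the brain, had levels of −1.83, −1.87 and −1.75 at 3 months, −1.97, −1.91 and −2.06 at 12 months, and −2.04, −1.69 and −1.80 at 24 months. The aged animals spanned the young ones, at −0.03 ± 0.10 (limma, adjusted p = 0.92). Soat1, which esterifies cholesterol for storage, had levels of −4.24, −4.56 and −4.33 at 3 months, −4.42, −4.75 and −4.64 at 12 months, and −4.27, −4.11 and −4.25 at 24 months. The middle-aged group was the lowest, and the difference between aged and young animals was 0.17 ± 0.11 (limma, adjusted p = 0.53).

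Over the 16 genes, aged animals lay above all young animals in 7 (against 14.0% of all items) and below them in 2, Insig1 and Insig2 (against 8.67%). An unadjusted limma p under 0.05 was reached by 6 that were higher, beside 10.3% of all items, and by 2 that were lower, beside 4.93%. Between middle-aged and young animals 0 of the 16 passed and the median was 0.0047. An unadjusted limma p under 0.05 was reached by 2, both higher, beside 3.73% of all items. Npc2 and Abca1 lay higher without overlap, as did 6.74% of all items, and Cyp46a1 lay lower without overlap, as did 4.61%. Between aged and middle-aged animals 0 passed, the median was 0.14, and 6 had an unadjusted limma p under 0.05, all higher, beside 7.58% of all items. In that comparison 7 had aged animals above all middle-aged ones, against 10.4% of all items. Insig1 alone had them below, against 6.6%.

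Outside the 34, other sterol and lipid genes were compared in aged against young animals. Of 12 further genes of sterol and isoprenoid synthesis, 1 fell, Acss2, which makes acetyl-CoA from acetate (−0.83 ± 0.16, limma, adjusted p = 0.033), the median was −0.084, and in 5 the aged animals lay below all young ones, against 8.67% of all items. Of 12 genes of fatty acid synthesis, 1 fell, the desaturase Scd (−0.96 ± 0.09, limma, adjusted p = 0.0025), with a median of −0.21. The aged animals lay below all young ones in 8 of these 12, and 7 were lower at an unadjusted limma p under 0.05, against 4.93% of all items. Of 14 genes of sterol uptake and transport, 1 rose, the mitochondrial protein Tspo (0.94 ± 0.14, limma, adjusted p = 0.012). Over all items 0.472% fell and 1.57% rose in this comparison. In the lists of SREBP processing (10 genes), lipoproteins and LXR targets (15 genes) and oxysterols and ester breakdown (5 genes), limma called 0. An unadjusted limma p under 0.05 was reached by 2 genes of SREBP processing, both lower. In lipoproteins and LXR targets 1 lower and 1 higher gene reached it, and in oxysterols and ester breakdown 0 did. Over all items 4.93% were lower and 10.3% higher at that level.

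Markers of other cell types also differed with age. Of 12 markers of oligodendrocytes, the cells that make myelin, 3 fell in aged against young animals, beside 0.472% of all items. Among them were Ugt8 (by 0.93) and Mal (by 0.51), 0 of the 12 rose, and the median of the 12 markers was −0.45. Their summed level, on the linear scale, was 661 to 700 in young animals, 537 to 570 in middle-aged animals and 466 to 530 in aged animals, and all 12 were well above background on every array. The oligodendrocyte median was −0.34 in middle-aged against young animals, with 2 that fell, beside 0.0393% of all items. In aged against middle-aged animals it was 0.05, with 0 called. The synthesis genes had −0.26 in each of those steps. Of 9 microglia markers 6 rose in aged against young animals, beside 1.57% of all items, and the median was 0.76. By limma's adjusted p the lowest were Tyrobp (1.38), P2ry12 (1.19) and Aif1 (0.92). The summed level of the 9 markers was 35.6 to 39.9 in young, 51.2 to 66.8 in middle-aged and 67.2 to 77.8 in aged animals. The 2 red blood cell markers with a probe, named after their values were seen as Hbb and Alas2, did not pass. Their median was 0.90 in aged against young animals and 1.04 in aged against middle-aged animals. In these 2 comparisons both were higher at an unadjusted limma p under 0.05, beside 10.3% and 7.58% of all items. Relative to the young mean their median per animal was −0.28 to 0.44 in young, −0.17 to −0.096 in middle-aged and 0.37 to 1.19 in aged animals. The 4 catecholamine neuron markers had a median of −0.29 in aged against young animals. An unadjusted limma p under 0.05 was reached by 2 of them, both lower, beside 4.93% of all items. Limma called 0 of these 4, of 8 neuron, 8 astrocyte, 6 oligodendrocyte precursor and 6 endothelium markers, and of 2 choroid plexus markers. The part of these cell types in the sterol differences was not tested.

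**Figure D5:**
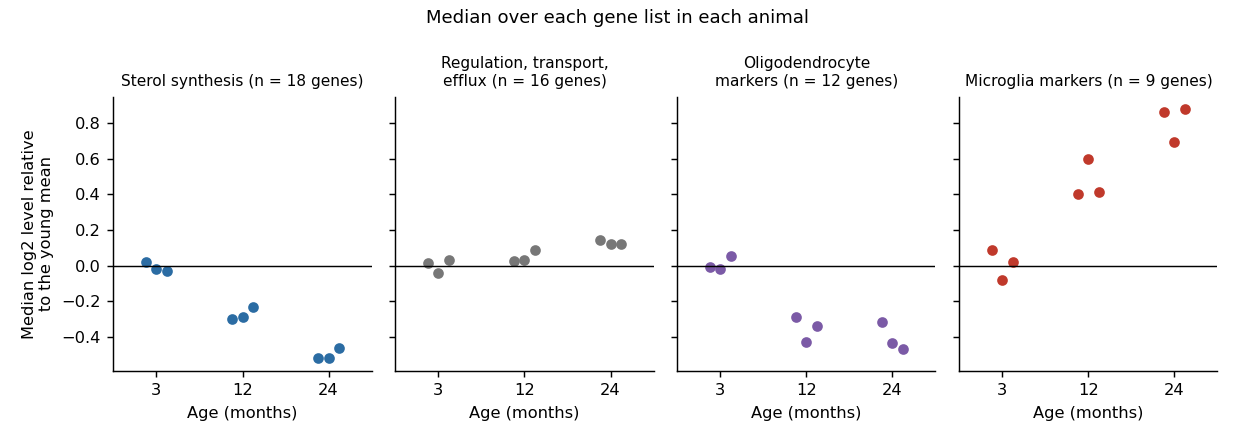
Median over a gene list in each animal (points), as log2 level relative to the mean of the young animals, at 3, 12 and 24 months, for the 18 synthesis genes, the 16 regulation, transport and efflux genes, 12 oligodendrocyte markers and 9 microglia markers. Synthesis lies at −0.30 to −0.23 at 12 months and −0.52 to −0.46 at 24 months; oligodendrocyte markers lie at −0.43 to −0.29 and −0.47 to −0.31.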

How the data were processed

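RNA from 9 animals was measured on 12 one-colour arrays. The deposited files hold fluorescence intensity from Agilent Feature Extraction 9.5.1.1, per the submitters' processing notes; per the file headers the processed signal was background-subtracted and detrended, and probe positions are on build rn3. The deposited series matrix holds a score with mean 0 and SD 1 on each array; it served as an alternative, and its log base is unknown. The deposited flags, scored 0 or 1, mark outlier, saturated and well-above-background spots.

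Spots of a probe were averaged as log2, the array's 75th percentile (control probes left out) was taken off, and both arrays of replicate 3 were averaged. A probe was kept if some age had it well above background on each of its arrays, as 29797 of 41012 did; the brightest kept probe stood for a gene, which gave 25446 items, 14114 of them named. The 34 genes had 47 probes, 45 of them kept, and 9 genes had more than 1. Differences came from 1 limma fit of the 9 animals (limma 3.58.1, R 4.3.3; two-sided, 6 residual and 2.64 prior degrees of freedom, Benjamini-Hochberg over all items), after the code was tested on simulated data. Alternatives were 10 other settings and 9 fits without 1 animal each. Nothing in the labels says more of the animals' independence than that they are biological replicates, and the number of arrays limits the precision. Labels number the animals 1 to 3 in each age. Deviations of same-numbered animals from their group means correlated at −0.41 to 0.37, and at 0.060 to 0.37 between aged and middle-aged animals. With 3 animals per age these values cannot settle whether the numbers pair animals, and the main fit did not pair them.

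Genes outside the 34 were named by a rule, at most 3 per list by lowest adjusted p, and all of the 34 are accounted for. The genes and lists were chosen with earlier results of these data known. The rule for printing promoters asked for an exact match to TCACNCCAC and found none. The 4 shown were therefore chosen after the motif search: the 3 largest falls and Abca1. Genes on the list of markers or pathways with no kept probe were left out.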

Additional observations from a re-analysis of the deposited data

How the results depend on the processing

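In aged against young animals the 18 synthesis genes stayed lower, and Npc2 and Abca1 stayed higher and past the threshold, in all 19 alternatives; calls near the threshold did not all hold. The cause was not tested for any of the values that follow. In aged against young animals the items past the threshold were 520, against 309 with normexp background, 288 with no filter on dim probes, 321 with slide as a block, 343 with only those groups fitted, and 271 to 510 when 1 animal was left out. Synthesis genes past the threshold were 13, against 8 with no filter, 7 with the replicate block (animals paired by number, a pairing the labels do not state), and 6 to 14 with 1 animal left out. The synthesis median was −0.46 with normexp and −0.53 to −0.47 with 1 animal left out. The median of the 16 other genes was 0.11 with normexp, 0.11 with quantile normalization, 0.12 with the mean of probes, 0.12 with slide as a block, 0.11 with the series matrix, and 0.10 to 0.18 with 1 animal left out.

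In middle-aged against young animals 51 items passed, against 23 with normexp, 5 with no filter, 33 with slide as a block, 8 with the replicate block, 3 with only those groups fitted, 33 with the series matrix and 2 to 26 with 1 animal left out. Of the synthesis genes 1 passed, against 0 with normexp, 0 with no filter, 0 with the replicate block, 0 with only those groups fitted and 0 with any animal left out. The synthesis median was −0.30 with quantile normalization and −0.30 with slide as a block, and the median of the other 16 was −0.033 with quantile normalization and 0.0047 to 0.041 with 1 animal left out. In aged against middle-aged animals 3 items passed, against 1 with quantile normalization, 0 with no filter, 1 with slide as a block, 26 with 12 arrays and the animal as a random block, 0 with the replicate block, 1 with only those groups fitted, 0 with the series matrix and 0 to 4 with 1 animal left out. There the median of the 16 genes was 0.10 with the series matrix and 0.10 to 0.19 with 1 animal left out, and the synthesis median was −0.30 to −0.22.

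The number of animals, 3 per age, limits the precision. Slides partly follow age, and only the slide with all ages compares aged with young animals directly, through 1 animal of each.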
